A study of Sus scrofa with 21 samples.

Results

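A set of 10 genes of the piRNA pathway was followed in testis RNA of 21 boars. The members were PIWIL1, PIWIL2, PIWIL4, DDX4, MAEL, TDRD1, TDRD9, TDRKH, MOV10L1 and ASZ1, chosen by gene symbol. Of these 10 genes, 9 were matched to an identifier among the 25880 genes in the count files. No identifier was paired with PIWIL1 in the sources used here, so no value is given for it.

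Testis RNA was sequenced with 1 library per boar from 13 Landrace and 8 Duroc boars kept for artificial insemination. The boars had been selected for extreme sperm hyperactivity, the vigorous motility that sperm show before fertilization. Contrast (i) compared Landrace boars with low (L1 to L4) and high (L5 to L8) hyperactivity at day 0, the day of ejaculation, and contrast (iii) compared Landrace boars with a low (L2, L9, L10, L12) and a high (L7, L13, L15) change in hyperactivity over 96 h of storage at 18 °C. L2 and L7 were in both. Contrast (ii) compared Duroc boars labelled high (D1 to D5) and low (D6, D7, D9) at day 0. By boar number, the study's own listing puts every one of these boars except D5 in the opposite group. However, libraries D2 and D3 hold 84446404 and 125576407 counts, more than the reads listed for those numbers. The numbers therefore do not all name the same animals. The deepest Duroc libraries, D3 and D2, are labelled high, and the deepest Duroc boars listed by the study are in its high group. A conflict between labels and study thus rests on the numbers alone, and directions in Duroc are given by the labels. No boar was treated, all groups were unmodified purebred animals, and ages per boar were not given. Whole testis was used, so every level was a mixture over germ cells and somatic cells, and fewer cells of a type and less RNA per cell cannot be told apart.

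PIWI-interacting RNAs (piRNAs) are small RNAs of the germ line that guide PIWI proteins to transposon transcripts and to other RNAs. Long precursors are unwound and cut at the surface of mitochondria and in neighbouring granules, trimmed, and loaded onto PIWI proteins, while Tudor domain proteins hold the machinery together by binding methylated arginines. In the mammalian testis the pathway silences transposons in fetal germ cells and in meiosis, and loss of single members in the mouse stops spermatogenesis.

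Markers of the labelled tissue were present. SYCP2, a protein of the meiotic chromosome axis, had 309 to 681 CPM (counts scaled to library size by the trimmed mean of M-values) over the 21 boars, and TNP1, a transition protein of elongating spermatids, had 3363 to 8262 CPM. The Sertoli cell marker CLDN11 had 98.1 to 311 CPM and the Leydig cell marker CYP17A1 had 279 to 2669 CPM. The Sertoli marker AMH, the spermatogonial marker NANOS3 and the monocyte marker CD14 were under 0.1 CPM on average. The depth was 41358671 to 125576407 counts per library.

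The members fall into PIWI proteins, RNA helicases, Tudor proteins and mitochondrial or granule factors. PIWIL2 (ENSSSCG00000030228, chromosome 14 of Sscrofa11.1, 6560402 to 6632524) and PIWIL4 (ENSSSCG00000014959, chromosome 9, 26679960 to 26751856) are PIWI proteins, the first a cytoplasmic slicer and the second known as the nuclear PIWI protein of fetal germ cells. DDX4 (ENSSSCG00000016913, chromosome 16, 34879701 to 34983701) is the germ cell helicase VASA, and MOV10L1 (ENSSSCG00000000976, chromosome 5, 509868 to 567429) is the helicase that feeds precursors into piRNA production. TDRD1 (ENSSSCG00000021075, chromosome 14, 124526013 to 124575166), TDRD9 (ENSSSCG00000002552) and TDRKH (ENSSSCG00000027770, chromosome 4, 97415891 to 97438262) carry Tudor domains, and TDRD9 is a helicase as well. ASZ1 (ENSSSCG00000016627, chromosome 18, 28859140 to 28910927) is a scaffold on the outer mitochondrial membrane, and MAEL (ENSSSCG00000006316, chromosome 4, 83990266 to 84040465) is a granule protein needed for transposon silencing. Positions are those of the whole genes in RefSeq, matched by symbol, and counts are over exons of the whole gene.

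Every matched member but PIWIL4 was read deeply in all boars. The lowest count of any of these 8 genes in a library was 1658, for TDRD9, while PIWIL4 had 22 to 299 reads per library. Since CPM is not scaled to gene length, levels are compared between boars within a gene and not between genes.

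**Figure D1:**
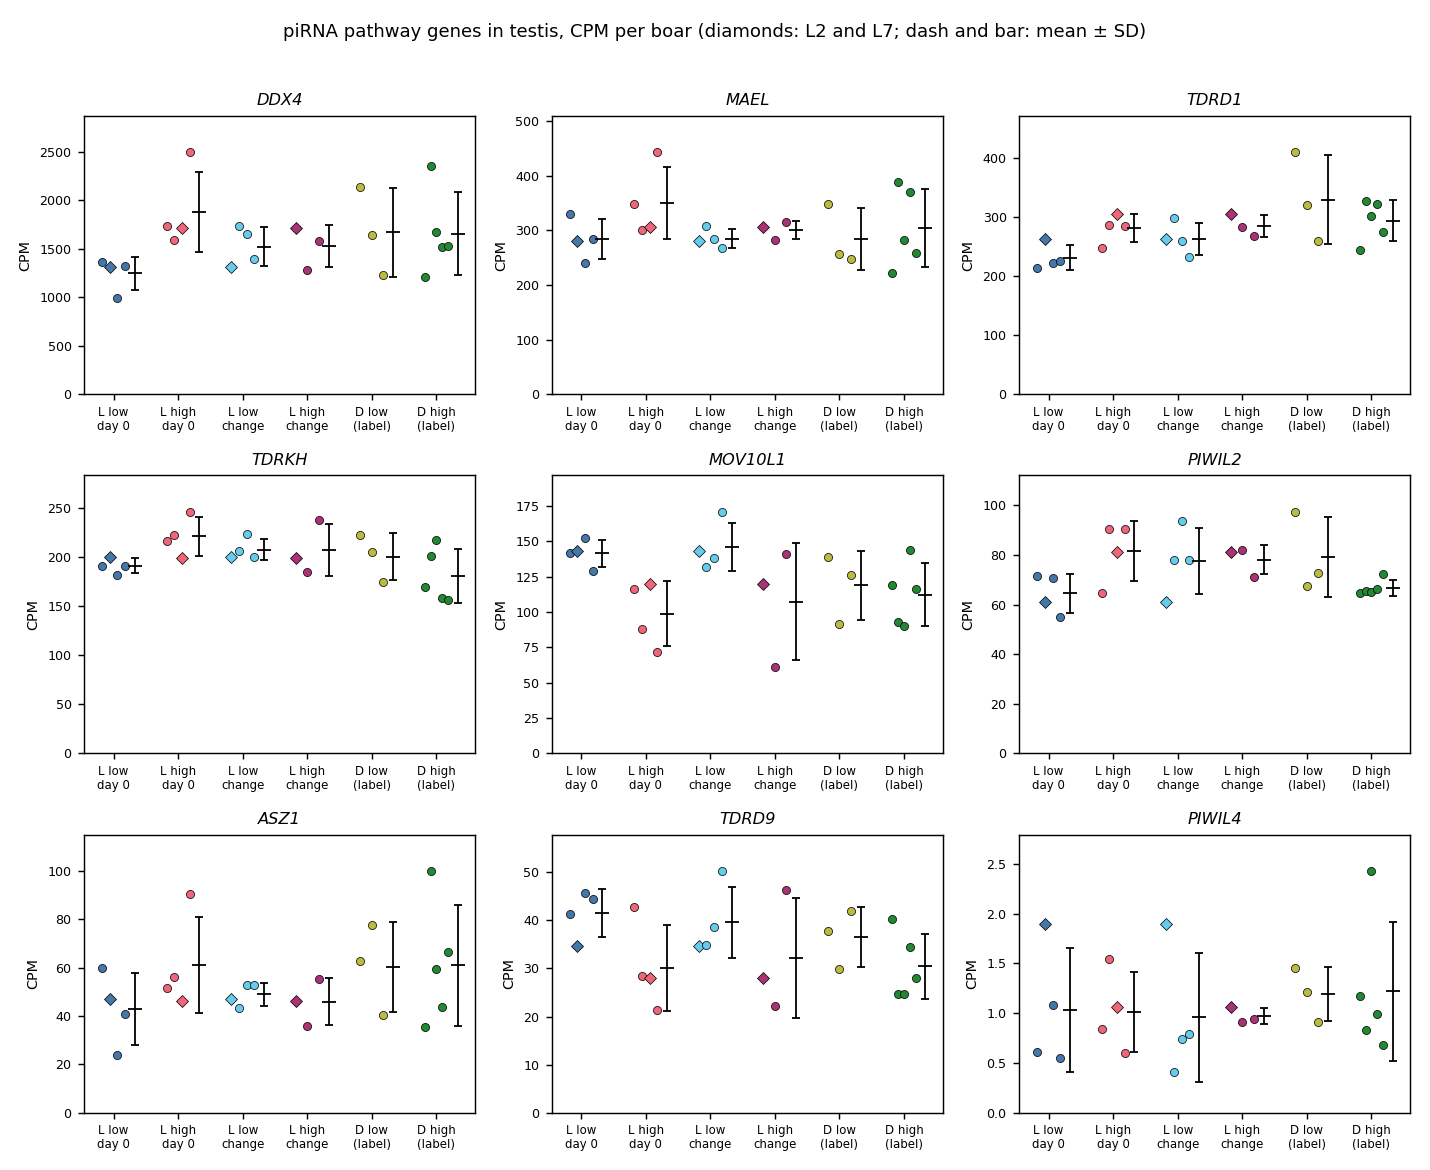
CPM (y axes, from 0) of the 9 matched piRNA pathway genes in each boar, by group, where L is Landrace and D is Duroc, diamonds mark L2 and L7, which are in both Landrace contrasts, and the dash and bar are the mean ± SD. The high day 0 boars lie above the low ones for DDX4 and below them for MOV10L1, and no other gene separates these groups.

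Within Landrace, boars with high hyperactivity at day 0 had more DDX4 and less MOV10L1 than boars with low hyperactivity, and the other members did not pass the test. In the quasi-likelihood test of edgeR, adjusted over all genes by Benjamini-Hochberg, 2 of the 9 members, or 22.2%, had an adjusted p under 0.05, beside 20.7% of the 12979 genes tested. Of these, 1 member was higher, where the share over all genes was 4.82%, and 1 was lower, where it was 15.8%. The share of members called was therefore close to that of all genes. The median log2 fold change, high over low, was 0.21 over the 9 members and 0.03 over all genes.

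The level of DDX4 in the low boars L1, L2, L3 and L4 was 1364, 1307, 993 and 1325 CPM. In the high boars L5, L6, L7 and L8 it was 1732, 1592, 1708 and 2491 CPM. No low boar came up to the high boars, and 31.4% of all genes tested likewise had groups that did not overlap, in either direction. The means were 1881 ± 411 CPM (SD, n = 4) and 1247 ± 171 CPM (SD, n = 4), so that the log2 fold change came to 0.52 (standard error, SE, 0.16, adjusted p = 0.045 from edgeR), and the two-sided exact permutation test gave p = 0.0286, the smallest that 4 boars against 4 allow. L3 lay far below the other low boars and L8 far above the other high boars. DDX4 passed without L5 (adjusted p = 0.0403), and in each of the 7 other fits that left out 1 boar its adjusted p was between 0.0525 and 0.15 in edgeR. Without L3 the log2 fold change was 0.40, without L8 it was 0.38, and without both it was 0.28 (adjusted p = 0.146, edgeR).

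MOV10L1 ran the other way. Its level was 142, 143, 152 and 129 CPM in L1 to L4 and 116, 88, 120 and 71.5 CPM in L5 to L8. No high boar reached the lowest low boar. The high boars averaged 98.7 ± 23 CPM (SD, n = 4) and the low boars 142 ± 9.55 CPM (SD, n = 4), so that the log2 fold change came to -0.59 (SE 0.17, adjusted p = 0.037 from edgeR) with an exact permutation p of 0.0286. The adjusted p rose to 0.0704 without L1, 0.0781 without L3, 0.0798 without L6 and 0.0589 without L8, and stayed under 0.05 without any one of the other boars. With L3 and L8 both left out, the log2 fold change was -0.41 (adjusted p = 0.154, edgeR).

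TDRD9, the other helicase with a lower mean in the high boars, did not pass. It had 41.4, 34.6, 45.6 and 44.4 CPM in L1 to L4, and 42.7, 28.5, 28 and 21.3 CPM in L5 to L8. The groups overlapped through L5, which had as much TDRD9 as the low boars. The log2 fold change was -0.53 (SE 0.21, adjusted p = 0.0776, edgeR), and without L5 it was -0.73 (adjusted p = 0.0163, edgeR).

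The remaining members had smaller differences or wider spreads. ASZ1 had 59.8, 47, 24 and 40.9 CPM in the low boars and 51.7, 56.3, 46.1 and 90.3 CPM in the high boars, with a log2 fold change of 0.44 (SE 0.26, adjusted p = 0.213, edgeR). L3 was again the lowest and L8 the highest boar. The PIWI protein PIWIL2 had 55.2 to 71.4 CPM in the low boars and 64.7 to 90.5 CPM in the high boars, and its groups overlapped through L5 alone. MAEL had 241 to 331 CPM in the low and 300 to 443 CPM in the high boars, TDRD1 had 214 to 263 and 248 to 306 CPM, and TDRKH had 182 to 200 and 199 to 246 CPM. Log2 fold changes of these 4 genes were 0.14 to 0.27, with adjusted p-values of 0.179 to 0.342 in edgeR. PIWIL4 had 0.547 to 1.9 CPM in the low and 0.602 to 1.54 CPM in the high boars, and its log2 fold change of -0.11 had a standard error of 0.44.

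Some markers of germ cell stages passed in this contrast, as did 20.7% of all genes tested in edgeR. The share that passed was lower than this for spermatocyte and spermatogonial markers, similar for round spermatid markers and higher for elongating spermatid markers. The summed level of 16 spermatocyte markers was 1628 to 2122 CPM in the low boars and 2291 to 3260 CPM in the high boars, lowest in L3 and highest in L8, as for DDX4. Of these 16 genes, 1 was higher and 1 lower by the same test, and their median log2 fold change was 0.41. Of 11 elongating spermatid markers, 5 were lower and none higher, with a median of -0.28, while their summed level overlapped, with 10337 to 15420 CPM in the low and 12459 to 17007 CPM in the high boars. Of 4 peritubular markers tested, 2 were lower (median -1.08). Of 9 round spermatid markers tested, 2 were lower and none higher, but 6 had a positive log2 fold change, the median was 0.29, and the summed level was 2334 to 3209 CPM in the low and 3119 to 4522 CPM in the high boars. Of 5 endothelial markers 1 was lower (median -0.39), and of 7 spermatogonial markers 1 was higher (median -0.15). None of 8 Sertoli, 6 Leydig or 3 macrophage and blood markers passed in edgeR. Of these, 1, 1 and 0 had an unadjusted p under 0.05, beside 41.7% of all genes. The part of these cell types in the members' values was not tested. When libraries were scaled to the spermatocyte markers in place of all genes, the median of all genes shifted by -0.25. DDX4 then stood at a log2 value of 0.27 (adjusted p = 0.236) and MOV10L1 at -0.83 (adjusted p = 0.0237, both edgeR). Both genes moved by about the shift that this scaling gives to every gene, so these values say nothing of the members in particular. The share of called genes that were lower went from 76.7% to 99.6%.

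Between boars with a high and a low change over storage, no member passed. None of 8 members had an adjusted p under 0.05 in edgeR, beside 0% of 12824 genes, and none had an unadjusted p under 0.05, beside 2540 genes (19.8%). The likelihood ratio test, which the study used, called 64 genes and no member, and DESeq2 called 116 genes and no member. PIWIL4 was too low to be tested. The median log2 fold change was -0.01 over the members and 0 over all genes.

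The member with the widest difference in this contrast was MOV10L1. It had 143, 132, 138 and 171 CPM in the low boars L2, L9, L10 and L12, and 120, 61.3 and 141 CPM in the high boars L7, L13 and L15. L15 lay among the low boars and L13 had the lowest level of all 21. The log2 fold change was -0.46 (SE 0.24, adjusted p = 0.301, edgeR), and without L13 it was -0.17. TDRD9 had 34.6, 34.9, 38.7 and 50.3 CPM in the low boars and 28, 22.2 and 46.3 CPM in the high boars, a log2 fold change of -0.31 (adjusted p = 0.469, edgeR) that was -0.10 without L13. L13 also had the highest summed Sertoli marker level of all boars, 519 CPM where the others had 196 to 312, and the lowest summed elongating spermatid level, 6973 CPM. The part of these levels in its MOV10L1 value was not tested.

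The other members stayed close between the storage groups. DDX4 had 1520 ± 202 CPM (SD, n = 4) in the low and 1523 ± 218 CPM (SD, n = 3) in the high boars, and PIWIL2 had 77.7 ± 13.3 and 78.2 ± 5.97 CPM. MAEL, TDRD1, TDRKH and ASZ1 had log2 fold changes of -0.11 to 0.11. All members' groups overlapped, where 16.4% of all genes did not overlap. Contrasts (i) and (iii) share L2 and L7, so their values are given side by side and were not tested against each other.

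**Figure D2:**
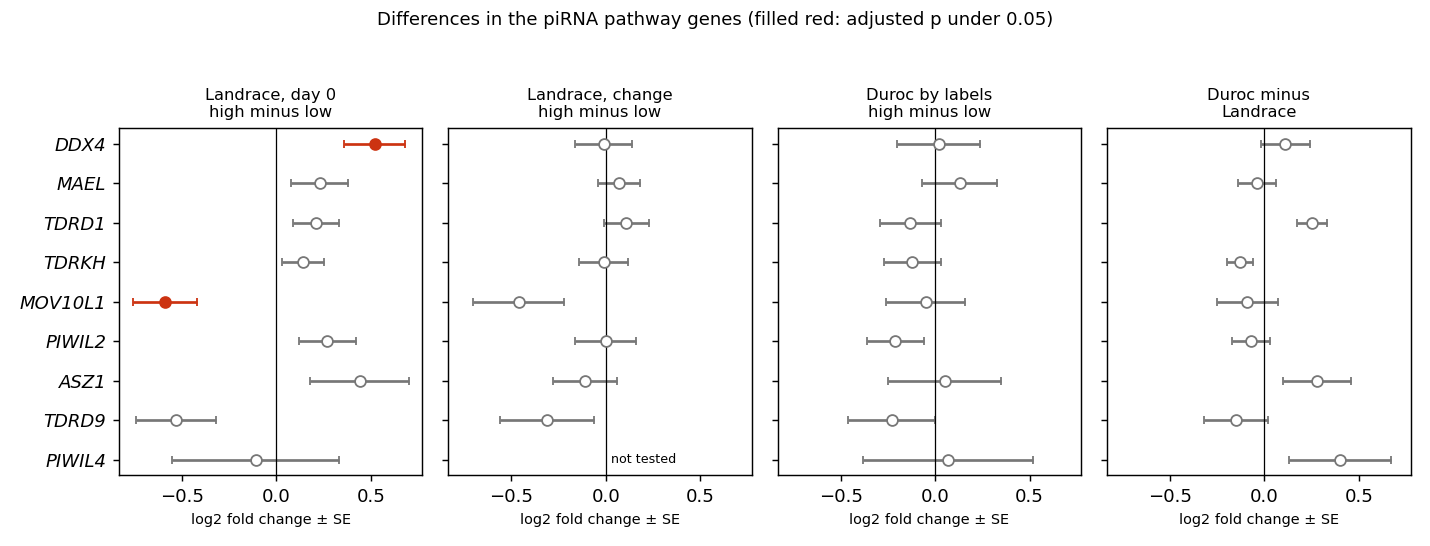
Log2 fold change ± standard error (x axis) of each member (y axis) in the 3 contrasts and between breeds, from edgeR's quasi-likelihood fit. DDX4 (0.52) and MOV10L1 (-0.59) in contrast (i) are filled, being past an adjusted p of 0.05, and every other point is open.

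In Duroc, no member separated the labelled groups. Of 9 members, 0 had an adjusted p under 0.05 in edgeR, beside 0% of 13043 genes, and 0 had an unadjusted p under 0.05, beside 158 genes (1.21%). The likelihood ratio test and DESeq2 also called no gene. The members' log2 fold changes, labelled high over labelled low, were -0.23 to 0.13, with a median of -0.05 where all genes had 0.04. All members' groups overlapped, as did those of all but 1.3% of genes.

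The Duroc boars themselves spread widely. DDX4 had 1204, 2351, 1667, 1520 and 1524 CPM in D1 to D5 and 2137, 1636 and 1227 CPM in D6, D7 and D9. D2 and D6, from opposite groups, were the highest, and D1 and D9, also from opposite groups, were the lowest. MOV10L1 had 119, 92.7, 90.1, 144 and 116 CPM in D1 to D5 and 139, 91.3 and 126 CPM in D6, D7 and D9. PIWIL2 was tight in the boars labelled high, at 64.6, 65.5, 65.2, 66.2 and 72.4 CPM, and had 97.5, 67.5 and 72.7 CPM in those labelled low. Its log2 fold change was -0.21 (SE 0.15, adjusted p = 1, edgeR) and the exact permutation p was 0.0357, where the smallest that 5 boars against 3 allow is 0.0179. That permutation p was not adjusted for the 9 members compared. The lowest labelled low boar was below the highest labelled high boar.

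Whether the day 0 difference itself differed between breeds was tested by an interaction term over 16 boars. By labels, 0 of 9 members passed in edgeR, beside 0% of 12920 genes, and 1 member had an unadjusted p under 0.05, beside 1946 genes (15.1%). That member was PIWIL2, with an interaction of -0.51 (SE 0.20, unadjusted p = 0.0213, adjusted p = 0.329, edgeR). MOV10L1 had 0.51 (SE 0.28) and DDX4 had -0.53 (SE 0.27), with adjusted p-values of 0.352 and 0.331 from edgeR. The Landrace differences in these genes were thus not shown to differ from those in Duroc. The likelihood ratio test called 3 genes and DESeq2 called 6, none of them a member.

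Between the breeds the members were level within the spread of boars. No member passed in edgeR, the likelihood ratio test or DESeq2, beside 2.88% of 13126 genes in edgeR, with 1.35% of the genes higher in Duroc and 1.53% lower. At an unadjusted p under 0.05 there was 1 member, beside 1612 genes (12.3%). The groups of all 9 members overlapped, as did those of all but 0.282% of genes. The median log2 fold change, Duroc over Landrace, was -0.04 over the members and -0.01 over all genes.

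TDRD1 came nearest to passing. Its lowest, median and highest level was 214, 263 and 306 CPM in 13 Landrace boars and 245, 311 and 410 CPM in 8 Duroc boars. The Duroc boars D2, D3, D4, D6 and D7 had 302 to 410 CPM, and L7, at 306 CPM, was the only Landrace boar in that range. The log2 difference was 0.25 (SE 0.08, adjusted p = 0.0958 from edgeR), and 0.19 without D6, which had the highest level. TDRKH, in contrast, had 182, 200 and 246 CPM in Landrace and 156, 188 and 222 CPM in Duroc, a log2 difference of -0.13 (SE 0.07, adjusted p = 0.516, edgeR). D1, D4, D5 and D9 were below every Landrace boar. With libraries scaled to the spermatocyte markers, which moved the median of all genes by -0.12, TDRKH was at -0.255 (adjusted p = 0.0226) and TDRD1 at 0.13 (adjusted p = 0.45, both edgeR).

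The rest differed less than boars of one breed differed among themselves. DDX4 had 1550 ± 358 CPM (SD, n = 13) in Landrace and 1658 ± 403 CPM (SD, n = 8) in Duroc, MAEL had 307 ± 49.3 and 297 ± 63.1 CPM, and PIWIL2 had 76 ± 11.8 and 71.5 ± 11 CPM. MOV10L1 had 123 ± 32 and 115 ± 21.6 CPM, TDRD9 had 36.8 ± 9.47 and 32.7 ± 6.87 CPM, and ASZ1 had 50.5 ± 15.4 and 60.7 ± 21.5 CPM. PIWIL4 had 0.92 ± 0.411 CPM in Landrace and 1.21 ± 0.549 CPM in Duroc, with a log2 difference of 0.40 (SE 0.27) that was 0.19 without D3, the boar with 2.43 CPM. Over all 6 groups, the order of the DDX4 means ran from Landrace low day 0 (1247 CPM) over the low and high storage groups (1520 and 1523 CPM) and the Duroc groups labelled high and low (1653 and 1666 CPM) to Landrace high day 0 (1881 CPM), and each neighbour in this order differed by less than 1 SD of the wider group except Landrace low day 0. MOV10L1 ran from Landrace high day 0 (98.7 CPM) over high storage change (107), Duroc labelled high (112) and low (119) to Landrace low day 0 (142) and low storage change (146 CPM), and each neighbour there was within 1 SD.

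The members differed in how alike they were over boars. As a measure of likeness, the log2 CPM of each gene was centred on its mean over a breed, and the mean absolute difference between 2 genes was taken over its boars. MOV10L1 and TDRD9 differed by 0.156 over the 13 Landrace and 0.172 over the 8 Duroc boars, whereas MOV10L1 and DDX4 differed by 0.477 and 0.403. DDX4 and MAEL differed by 0.137 and 0.159, and MAEL and TDRKH by 0.126 and 0.244. The median between MAEL and all genes was 0.29 in Landrace and 0.326 in Duroc, and for TDRKH it was 0.271 and 0.275. The measure was not scaled to a gene's spread. The members did not fall into clear groups in both breeds. In Duroc, PIWIL2 was nearer to MOV10L1 (0.193) than to DDX4 (0.227) or MAEL (0.263), although in Landrace it was farther from MOV10L1 (0.459) than from DDX4 (0.235). In Duroc the median between ASZ1 and all genes was 0.452. ASZ1 was nearer than that to DDX4 (0.243), TDRKH (0.359), TDRD1 (0.365), MAEL (0.367) and PIWIL2 (0.439), and farther from MOV10L1 (0.592) and TDRD9 (0.635). Between MOV10L1 and all genes the median was 0.44 in Landrace and 0.366 in Duroc. Boars of a breed share library preparation and read scaling, so these are descriptions.

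Within each breed, MOV10L1 was lowest in the boars L13 (61.3 CPM), L8 (71.5 CPM) and L6 (88 CPM), and in D3 (90.1 CPM), D7 (91.3 CPM) and D2 (92.7 CPM). TDRD9 was lowest in L8, L13 and L7, at 21.3, 22.2 and 28 CPM, and in D2, D3 and D5, at 24.7, 24.7 and 28 CPM. Boars of both labelled Duroc groups were thus among the lowest for MOV10L1. DDX4 in the same low boars was high in L8 and D2 (2491 and 2351 CPM), lower in L6, D3 and D7 (1592 to 1667 CPM), and low in L13 (1283 CPM).

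Among all 12938 genes with at least 1 CPM on average in Landrace, the gene most like MOV10L1 was SETD3, a histidine methyltransferase of actin, at a mean absolute difference of 0.0764 in Landrace and 0.109 in Duroc, and the most like TDRD9 was FAM53C (0.113 and 0.141). The gene most like DDX4 was TAX1BP1, an autophagy receptor (0.0408 and 0.0697), and the most like TDRKH was XPO5, the exporter of microRNA precursors (0.0342 and 0.186). For TDRD1 it was RNF17 (0.0587 and 0.17), itself a Tudor protein of germ cells. MAEL was most like SERPINB6 (0.0568 and 0.177), PIWIL2 most like UTP6 (0.0856 and 0.176), and ASZ1 most like ABHD5 (0.126 and 0.193). The Duroc values were not used in the choice.

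**Figure D3:**
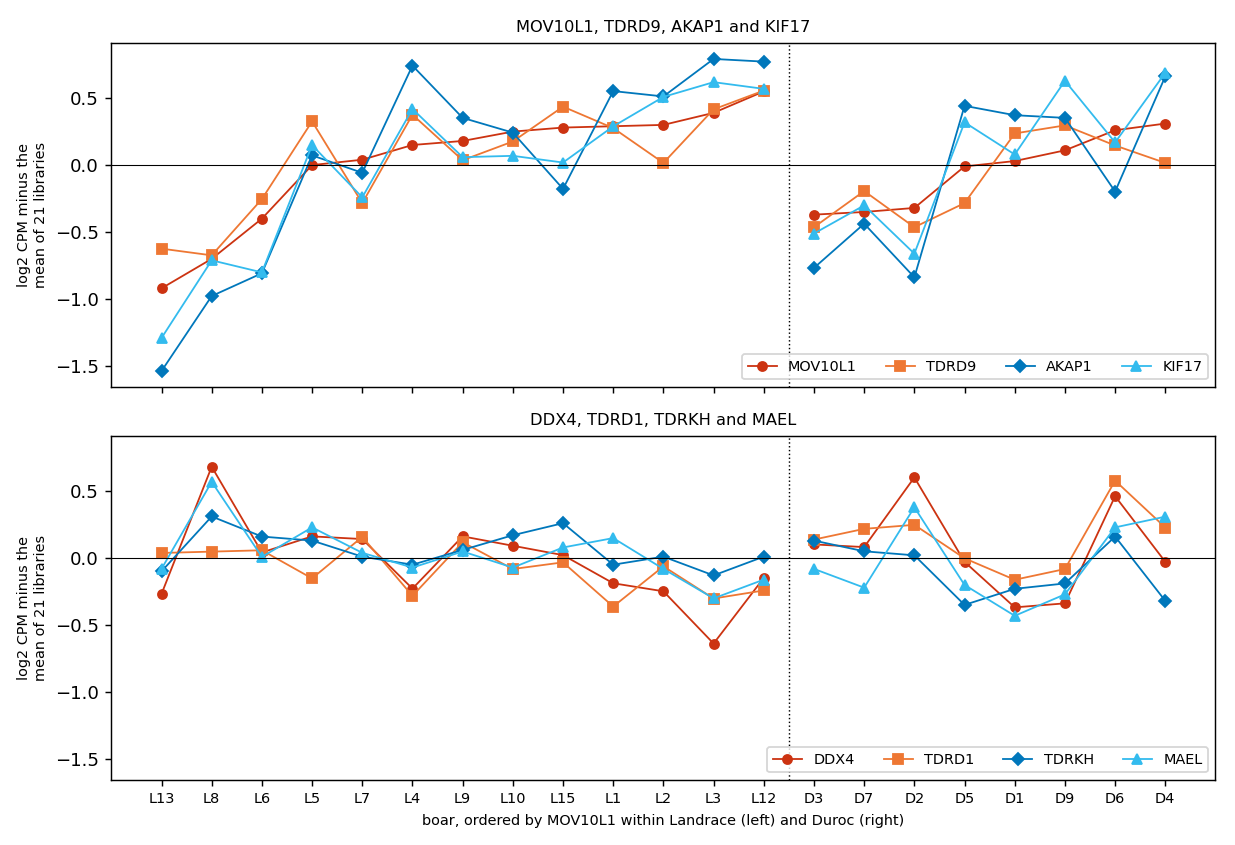
Log2 CPM minus the mean of the 21 libraries (y axis) for 4 genes in each panel, with boars ordered by MOV10L1 within Landrace (left of the dotted line) and Duroc (right). In the upper panel MOV10L1, TDRD9, AKAP1 and KIF17 are low together in L13, L8, L6, D3, D7 and D2. MOV10L1, AKAP1 and KIF17 had passed as lower in the high day 0 boars, which include L6 and L8, so that part is not independent. In the lower panel DDX4, TDRD1, TDRKH and MAEL do not follow that order, and DDX4 is highest in L8 and D2.

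Other genes of the pathway were read from a list of 32, of which 27 had an identifier and 24 were tested. TDRD7, TDRD15, STK31, GPAT2 and TEX15 were not matched. NANOS2 had no count in any boar, and DNMT3L and SPOCD1 were too low to be tested. In contrast (i), 5 of 24 genes passed in edgeR (20.8%, where all genes had 20.7%), 4 lower and 1 higher in the high boars. The median log2 fold change of all 24 genes was 0.14. Without L3, without L6, and without both L3 and L8, none of the 24 passed, where 1, 1 and 0 of all genes did.

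AKAP1, an anchoring protein of the outer mitochondrial membrane, had 208, 203, 246 and 238 CPM in L1 to L4 and 149, 81.2, 136 and 72.1 CPM in L5 to L8. Its log2 fold change of -1.09 (SE 0.23, adjusted p = 0.0208, edgeR) was wider than that of any member. KIF17, a kinesin motor, had 129, 150, 162 and 141 CPM against 117, 60.5, 89.5 and 64.3 CPM, a log2 fold change of -0.88 (SE 0.21, adjusted p = 0.0219, edgeR). L5 was the highest of the high boars for both genes, as it was for TDRD9.

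PLD6, the mitochondrial nuclease that cuts piRNA precursors, had 14.5, 6.75, 9.68 and 13.3 CPM in the low boars and 5.02, 1.58, 6.73 and 2.31 CPM in the high boars. The groups just failed to overlap, between L2 and L7. The log2 fold change was -1.55 (SE 0.42, adjusted p = 0.0301, edgeR). PLD6 did not pass without L1, L3, L4, L6 or L8, with adjusted p-values of 0.0544 to 0.0693. DNMT3A, a de novo DNA methyltransferase, was at 4.69, 4.23, 8.39 and 4.49 CPM in the low and 3.49, 2.82, 3.31 and 2.49 CPM in the high boars, and its log2 fold change was -0.92 (SE 0.28, adjusted p = 0.0395, edgeR), or -0.66 without L3 (adjusted p = 0.113). It also failed to pass without L1, L6 or L8, with adjusted p-values of 0.0629 to 0.0869 in edgeR.

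GTSF1, a zinc finger partner of PIWI proteins, was the 1 gene of this list that was higher in the high boars. It had 927, 895, 725 and 896 CPM in the low and 1327, 1062, 1164 and 1635 CPM in the high boars. L3 was lowest and L8 highest, as for DDX4. The log2 fold change was 0.52 (SE 0.15, adjusted p = 0.0361, edgeR), and 0.28 (adjusted p = 0.235) with libraries scaled to the spermatocyte markers. GTSF1 passed without L5 or L7, but in the other 6 fits that left out 1 boar its adjusted p was 0.0539 to 0.12 in edgeR.

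In contrast (iii), none of the 24 genes passed in edgeR, the likelihood ratio test or DESeq2, and 5 had an unadjusted p under 0.05, or 20.8%, where 19.8% of all genes did. The 3 with the smallest p were AKAP1 (log2 fold change -0.95), KIF17 (-0.74) and SND1, a Tudor nuclease (-0.42), each with an adjusted p of 0.24 from edgeR. Without L13 these were -0.61, -0.43 and -0.24. In Duroc none passed and none had an unadjusted p under 0.05. The smallest p-values were those of TDRD12, a Tudor helicase (log2 fold change -0.25), and of WDR77 and PRMT5, the enzyme complex that methylates arginines (both -0.20), each with an adjusted p of 1. The interaction passed for none of 24 in edgeR, the likelihood ratio test or DESeq2, and 6 had an unadjusted p under 0.05, where 15.1% of all genes did. The smallest p-values were those of TDRD12 (-0.51), AKAP1 (1.27) and TCFL5, a transcription factor of spermatocytes (-0.45), each with an adjusted p of 0.329 in edgeR.

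**Figure D4:**
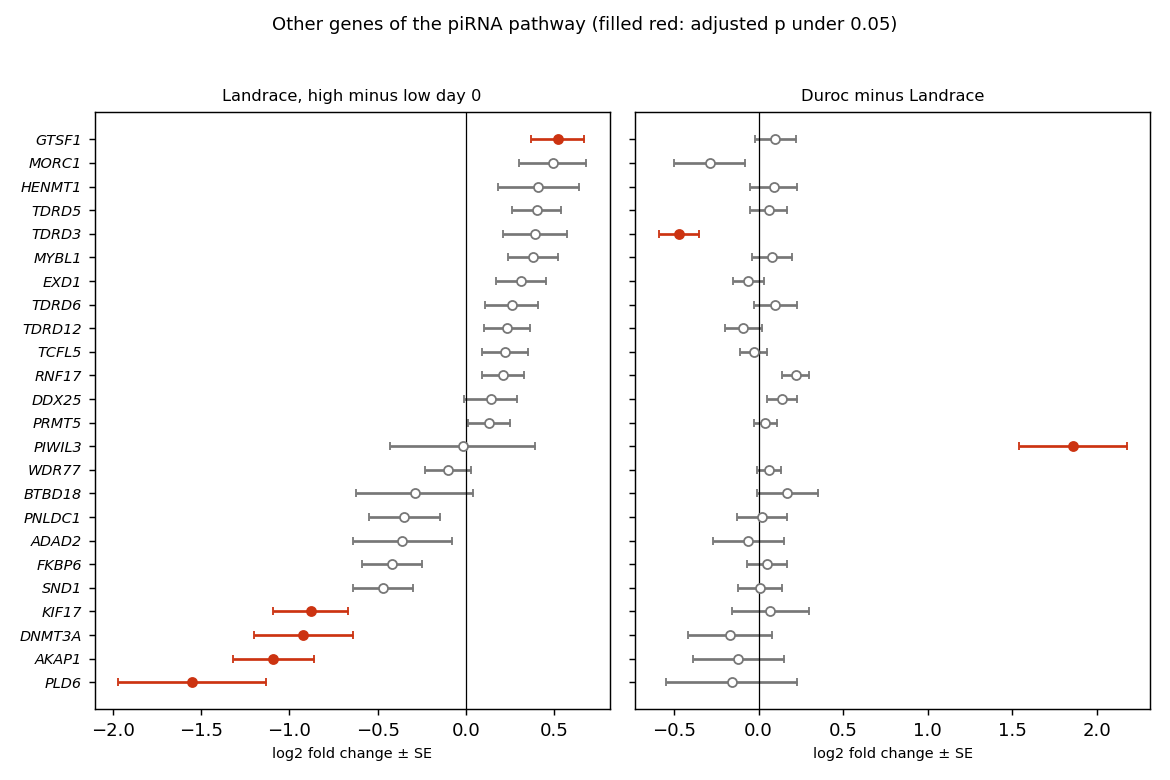
Log2 fold change ± standard error (x axes) of the 24 other piRNA pathway genes tested (y axis), in contrast (i) on the left and between breeds on the right. PLD6, AKAP1, DNMT3A and KIF17 are lower and GTSF1 higher in the high day 0 boars, PIWIL3 is higher and TDRD3 lower in Duroc, and these 7 filled points are past an adjusted p of 0.05.

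The clearest breed difference in the pathway was in PIWIL3, a PIWI protein outside the member list that is known mainly from oocytes of other mammals. It had a lowest, median and highest level of 1.37, 3.4 and 9.26 CPM in Landrace. In D1 to D5 it had 4.21, 24.3, 10.1, 17.8 and 13.6 CPM, and in D6, D7 and D9 it had 16.6, 8.66 and 3.89 CPM. All Landrace boars but L9 were at or below 4.66 CPM, and D1 and D9 lay in their range. The means were 12.4 ± 7.06 CPM (SD, n = 8) in Duroc and 3.44 ± 2.04 CPM (SD, n = 13) in Landrace, a log2 difference of 1.86 (SE 0.32, adjusted p = 0.00116 from edgeR, permutation p = 0.000192). It passed in all 21 fits that left out 1 boar, with log2 differences of 1.65 to 2.07.

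TDRD3, a Tudor protein that binds methylated arginines and works with topoisomerase, was lower in Duroc. Its lowest, median and highest level was 80.7, 123 and 195 CPM in Landrace and 68.9, 87.9 and 126 CPM in Duroc. D2 was the highest Duroc boar, far from the others. The log2 difference was -0.47 (SE 0.12, adjusted p = 0.0356, edgeR). The adjusted p was 0.0535 to 0.0833 in each fit that left out L4, L5, L9, D1, D3, D4, D5, D6, D7 or D9. None of the other 22 pathway genes passed, and the median log2 difference over the 24 was 0.04.

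**Figure D5:**
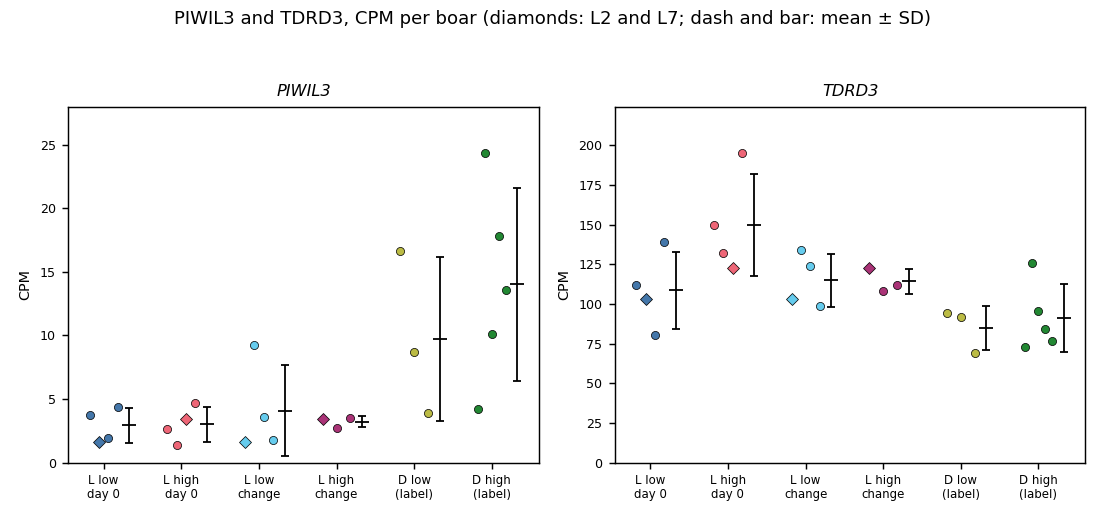
CPM (y axes, from 0) of PIWIL3 and TDRD3 in each boar, by group as in the plot of the members. Of the 8 Duroc boars 6 lie above 8 CPM of PIWIL3, as does 1 Landrace boar, L9, and all Duroc boars but D2 lie between 68.9 and 95.7 CPM of TDRD3.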

How the data were processed

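Total RNA from testis was sequenced by the authors as 100 base single reads from stranded mRNA libraries, 1 library for each of 21 boars. The authors trimmed reads with Trimmomatic 0.36, aligned them with STAR 2.5.2a to Sscrofa 11.1, merged lanes with Samtools 1.3.1 and counted reads per gene with HTSeq, using the reverse stranded option and Ensembl release 90. The deposited values are raw counts of 25880 genes, not normalized, and 29.4 to 39% of the reads in the files were assigned to no gene and left out. The depth was 41358671 to 125576407 counts per library, so the spread between boars, not counting error, limits the precision for all members but PIWIL4.

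Groups were taken from the deposited labels. By boar number, the study's table has the opposite group for 7 of the 8 Duroc boars. Libraries D2 and D3 hold more counts than the reads given there for those numbers, so the numbers do not all name the same animals. The labels were used. Boars are separate animals. Pairs of libraries of a group differed beyond sampling noise (chi-square per degree of freedom 45.9 to 288), so none was a duplicate.

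The tests were run in edgeR 4.0.16 under R 4.3.3. A gene was kept if 4 libraries of a contrast reached 1 CPM, or 8 libraries between breeds and for the interaction, libraries were scaled by TMM, and edgeR's quasi-likelihood test was applied to all genes and adjusted by Benjamini-Hochberg, with 0.05 as the threshold. Log2 fold changes and standard errors come from the boars of 1 comparison. CPM levels are TMM-normalized over all 21 libraries, and log2 CPM used a prior count of 2. Single members were also compared by exact permutation, two-sided, of the boars between groups (70, 56, 35 and 203490 assignments). The fits were tested on simulated data. Alternatives were the likelihood ratio test that the study used, DESeq2 1.42.0, other scalings and filters, a robust fit, other sets of boars and leaving out each boar. Leaving out L3 and L8 together was chosen after seeing the data.

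Symbols came from a table of identifiers and, for MOV10L1 and 3 marker genes, from pairings of identifiers with symbols given by the study. Members of the set are named in every comparison. Of the other pathway genes, those that passed were named, or else the 3 with the smallest p. The genes most like each member were found by a rule meant for PIWIL1, applied to the others after their values were seen. The members and lists were chosen with earlier results of these data known. Sequences were not used here.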

Additional observations from a re-analysis of the deposited data

Results flagged for a closer look

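Single boars lay far from the rest of their group in 10 of 105 combinations of a gene and a group of 4 to 10 boars, by Dixon's test, where chance gives about 1 in 20 and thus 5.25. The boars labelled high lie within the Duroc group, and D3 was flagged for PIWIL4 in both. The 10 combinations were therefore not independent and were not tested against 5.25.

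Of these, 3 were in the Landrace low day 0 boar L3, which had 993 CPM of DDX4 where the other 3 boars had 1307 to 1364, 725 CPM of GTSF1 where they had 895 to 927, and 8.39 CPM of DNMT3A where they had 4.23 to 4.69. In the same group L4 had 46.1 CPM of TDRD12 and the others 55.5 to 57.3. Among the high boars L8 had 2491 CPM of DDX4, where the other 3 had 1592 to 1732.

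In Duroc, D6 had 97.5 CPM of PIWIL2 and the other 7 boars 64.6 to 72.7, and among the boars labelled high D5 had 72.4 CPM against 64.6 to 66.2. D3 had 2.43 CPM of PIWIL4, where the other boars labelled high had 0.676 to 1.17 and the other 7 Duroc boars 0.676 to 1.45. D2 had 126 CPM of TDRD3, and the other Duroc boars had 68.9 to 95.7.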

How the results depend on the processing

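Of 897 values of single members under an alternative, 835 kept their direction and their side of the threshold, 15 no longer passed, 2 newly passed and 45 turned direction, 41 of these from a value within 1 standard error of 0. In contrast (i), 1 member passed with libraries scaled to the spermatocyte markers (MOV10L1), 1 with all 13 Landrace libraries in 1 fit (DDX4), 0 without L3 and L8, and 0 to 3 when 1 boar was left out. There were 0 without L1, L3, L6 or L8, and 3 without L5. Between breeds 1 member, TDRKH, passed with libraries scaled to the spermatocyte markers.

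That scaling moved the median of all genes by -0.25 in contrast (i), so small positive values there had to turn. With it the log2 fold change in contrast (i) was -0.005 for PIWIL2, -0.021 for MAEL, -0.045 for TDRD1 and -0.114 for TDRKH, that of DDX4 was -0.02 and of ASZ1 -0.003 in contrast (ii), that of DDX4 was -0.01 between breeds, and that of MAEL was 0.12 in the interaction. DDX4 in contrast (ii) was -0.012 with DESeq2, -0.012 with relative log expression scaling and -0.022 without a filter. In contrast (iii), PIWIL2 was 0.003 without a filter, 0.002 with filterByExpr and 0.003 with all Landrace libraries, and TDRKH was 0.019 without L2 and L7. MOV10L1 between breeds was 0.008 with the labelled level as a covariate. For the others the cause was not tested.

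Leaving out 1 boar at a time gave values on both sides of 0 in contrast (i) for PIWIL4 (-0.358 to 0.088, over the 4 fits without L1, L4, L5 or L8, since it was too low to be tested in the others), in contrast (ii) for PIWIL4 (-0.369 to 0.225), DDX4 (-0.127 to 0.206), TDRD1 (-0.237 to 0.021), MOV10L1 (-0.22 to 0.044) and ASZ1 (-0.193 to 0.258), in contrast (iii) for PIWIL2 (-0.088 to 0.081), DDX4 (-0.096 to 0.111), TDRKH (-0.124 to 0.071) and ASZ1 (-0.268 to 0.047), between breeds for MAEL (-0.097 to 0.016), and in the interaction for PIWIL4 (-0.235 to 0.422) and MAEL (-0.21 to 0.054).

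Over all genes, contrast (i) called 2682 genes, 1 to 3764 without 1 boar (1 without L3 and 1 without L6), and 0 without L3 and L8. Contrast (iii) called 0 genes in edgeR's quasi-likelihood test, 1 without a filter or with filterByExpr, 64 by the likelihood ratio test and 116 with DESeq2, and the interaction 0, 3 by the likelihood ratio test and 6 with DESeq2. The breeds differed in 378 genes, 678 with the spermatocyte scaling and 204 with the Landrace boars of contrast (i) alone. Of the other pathway genes, 8 passed in contrast (i) with DESeq2 and 0 to 8 without 1 boar. Between breeds, 1 passed without a filter or with the Landrace boars of contrast (i) alone, PIWIL3.

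No paired analysis was possible because the numbers in the labels name boars and pair none of them. Contrast (i) rests on 4 boars against 4 and contrast (iii) on 4 against 3, so an exact permutation test of 1 gene cannot go below 0.0286. At 22 to 299 reads, PIWIL4 was limited by depth as well.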

Other observations

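The members differed in how widely the 21 boars spread, whatever their group. The highest level was 4.18 times the lowest for ASZ1, 2.78 times for MOV10L1, 2.51 times for DDX4, 2.36 times for TDRD9 and 2 times for MAEL. TDRD1 (1.92 times), PIWIL2 (1.77 times) and TDRKH (1.58 times) varied least. PIWIL4 spread by 5.9 times, on 22 to 299 reads.

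ASZ1, the mitochondrial scaffold, and DDX4, the germ cell helicase, shared the 2 highest and the 4 lowest boars. ASZ1 was highest in D2 (100 CPM) and L8 (90.3 CPM), which were also the highest for DDX4. It was lowest in L3 (24 CPM), D1 (35.3 CPM), L13 (35.9 CPM) and D9 (40.5 CPM), and these were the lowest 4 for DDX4 as well, at 993, 1204, 1283 and 1227 CPM. The summed level of the spermatocyte markers was highest in L8 (3260 CPM) and D2 (3062 CPM) and lowest in L3 (1628 CPM), D1 (1719 CPM) and D9 (1792 CPM), while L13 (2118 CPM) lay in the middle. These are descriptions over boars of both breeds, chosen after their values were seen.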
